A study of Mus musculus with 12 samples.

Results

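The 10 genes described here handle fatty acids in macrophages or control the genes that do: *Lpl*, *Angptl4*, *Cd36*, *Fabp4*, *Fabp5*, *Plin2*, *Hilpda*, *Cpt1a*, *Pparg* and *Ppard*. They were taken by gene symbol, and all 10 of 10 were among the 13232 genes of the table. The group was assembled because *Cd36* and *Angptl4* were higher in libraries from mice on a high-fat diet (HFD) than on a normal diet (ND). Differences between the diets are therefore given for all 10 genes as a description, with no test.

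Lipoprotein lipase, the product of *Lpl*, releases fatty acids from circulating triglycerides, and ANGPTL4 inhibits it. CD36 takes fatty acids and oxidized lipoproteins into the cell, FABP4 and FABP5 carry fatty acids inside it, PLIN2 coats the lipid droplets in which they are stored, and CPT1A admits them to the mitochondrion for oxidation. PPARγ and PPARδ, encoded by *Pparg* and *Ppard*, are nuclear receptors that bind fatty acids and switch on many of these genes. Low oxygen is a further known inducer of *Angptl4*, *Hilpda* and *Plin2*, through the HIF transcription factors.

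Bone marrow-derived macrophages are grown from mouse marrow with the growth factor M-CSF, here at 20 ng/ml. The donors were wild-type C57B6/J mice on either diet. Every culture went into serum-free medium with M-CSF on day 4 and spent 1 h at 1% oxygen on day 7. Ribosomal RNA was removed from total RNA, and 3 libraries per diet were analysed. The labels give neither diet composition, feeding time, age and sex of the mice, nor whether libraries came from separate mice, so spreads and p-values measure only these libraries. The 6 libraries at normal oxygen were not analysed here, and nothing can be said on the response to hypoxia itself.

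Estimated depth ran from 19046400 reads (ND replicate 3) to 24491500 reads (HFD replicate 3). On the first principal component of 10794 genes (43.3% of the variance), ND replicate 3 (3.43) lay apart from ND replicates 1 and 2 (-14.0 and -13.5), above HFD replicate 1 (1.33) and below HFD replicates 2 and 3 (11.3 and 11.4). Differences of the 10 genes are therefore also given without ND replicate 3. It was the ND library nearest to HFD on this component, so leaving it out widens the difference between diets along it. The values without it are thus no neutral check. All 10 macrophage markers examined were listed, the lowest of them (*Fcgr1*) at a mean level above 85.3% of genes. Their summed level was 368867 to 421648 in ND and 365737 to 427142 in HFD. Of markers of other cells, the table lists 0 of 10 for adipocytes, 0 of 6 for B cells and 0 of 6 for erythroid cells.

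The promoters of *Cd36* and *Plin2* are shown because, of the 6 genes with a RefSeq promoter to hand, these were the 2 with a close relative of the PPAR response element, and *Hilpda* because low oxygen is known to induce it and its promoter holds letters bound by HIF. The windows run from 250 bases before to 50 bases after the RefSeq start, on mm10 (GRCm38.p6), and the start used for *Cd36* lies inside the longer gene span of GENCODE. *Cd36* is at chr5:17835847-17836146 (minus strand), *Plin2* at chr4:86670010-86670309 (minus strand) and *Hilpda* at chr6:29272376-29272675 (plus strand). In the first pair, capitals mark the stretch nearest to the element, AGGTCA repeated after 1 free base, and in *Hilpda* they mark ACGTG or GCGTG, both strands being searched.
*Cd36*: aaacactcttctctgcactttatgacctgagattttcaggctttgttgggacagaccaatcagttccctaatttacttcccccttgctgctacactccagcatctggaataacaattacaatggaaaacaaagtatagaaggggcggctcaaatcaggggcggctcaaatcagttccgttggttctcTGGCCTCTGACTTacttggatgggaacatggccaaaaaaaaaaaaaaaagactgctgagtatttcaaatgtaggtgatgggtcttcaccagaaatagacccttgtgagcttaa
*Plin2*: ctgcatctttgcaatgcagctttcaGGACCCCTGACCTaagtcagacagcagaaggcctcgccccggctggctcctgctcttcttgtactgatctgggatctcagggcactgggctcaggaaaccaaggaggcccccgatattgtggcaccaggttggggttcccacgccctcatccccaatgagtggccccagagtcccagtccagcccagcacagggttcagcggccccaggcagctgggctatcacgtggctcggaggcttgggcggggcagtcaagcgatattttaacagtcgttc
*Hilpda*: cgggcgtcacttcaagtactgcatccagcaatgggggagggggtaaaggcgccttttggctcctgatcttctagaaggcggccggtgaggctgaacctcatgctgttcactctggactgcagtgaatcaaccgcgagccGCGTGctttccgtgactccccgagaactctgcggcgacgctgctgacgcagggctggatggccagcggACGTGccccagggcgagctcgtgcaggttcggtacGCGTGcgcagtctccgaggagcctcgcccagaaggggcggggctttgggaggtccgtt

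The stretch in *Cd36* begins 63 bases before the start and reads AAGTCAGAGGCCA on the opposite strand. The stretch in *Plin2* begins 225 bases before the start and reads AGGTCAGGGGTCC on the opposite strand. Each departs from the element at 2 of its 12 fixed letters, a match held by 3.86% of 32851 mouse promoters of this length. Windows for *Cpt1a*, *Ppard*, *Hilpda* and *Pparg*, which has 3 listed starts, were no closer than 4 mismatches. ACGTG was in the windows of *Plin2* and *Ppard* and in the printed one of 2 for *Hilpda*, against 19.6% of all promoters, and that of *Plin2* is part of a CACGTG (7.15% of promoters). GCGTG, found in 32.4% of promoters, was in windows of *Plin2*, *Pparg*, *Ppard* and *Hilpda*. TATAAA, in 13.6% of promoters, was in 1 window, of *Pparg*. These are letter matches only. *Angptl4*, *Fabp4*, *Fabp5* and *Lpl* had no entry.

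The 10 genes differed widely in level, from the top of the table to below its median gene. *Lpl* was the most abundant, ranking 16 of 13232 genes by normalized count and supplying 0.587% to 0.777% of a library's total signal, and *Cd36* ranked 26. Together the 10 genes supplied 0.912% to 1.35%. To compare genes, counts were divided by the length of the longest protein-coding transcript. The median gene then stood at 177 per kb.

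*Lpl* stood at 36350 ± 4244 normalized counts per kb (SD over the 6 libraries of both diets) and *Cd36* at 19970 ± 6176. *Plin2* followed at 9244 ± 1307, and *Fabp5* at 7895 ± 647. This pair overlapped, *Plin2* being higher in 4 of 6 libraries. *Fabp4* (966 ± 81.9) and *Cpt1a* (925 ± 84.2) also overlapped. *Pparg* was at 656 ± 51.3. The next pair, *Ppard* (205 ± 20.8) and *Hilpda* (192 ± 24.3), overlapped near the median gene. *Angptl4* was lowest at 49.0 ± 17.2, above 19.3% of genes.

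The other neighbours in this order were separate in every library, from a ratio of 1.41 (*Cpt1a* over *Pparg*) to 8.17 (*Fabp5* over *Fabp4*). With all exons counted as length, the order of *Lpl* (14276 per kb) and *Cd36* (18908 per kb) turned, *Fabp4* (193) fell behind *Cpt1a* (522) and *Pparg* (472), and *Hilpda* (171) came before *Ppard* (89.6). The other places in the order were kept.

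**Figure D1:**
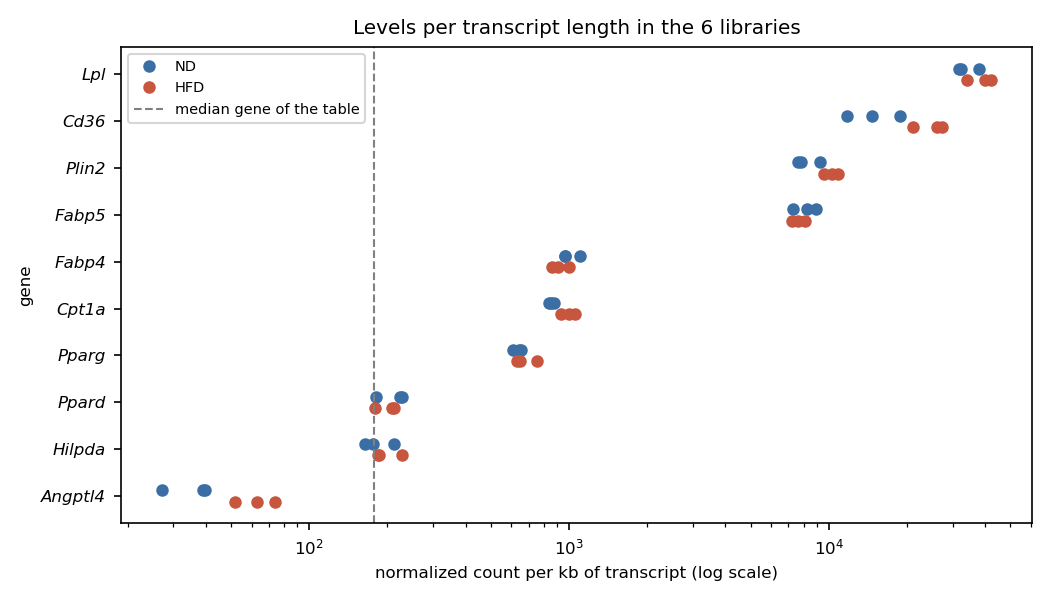
Normalized count per kb of transcript on a log axis for each gene in each of the 6 libraries (blue ND, red HFD, 3 points each), with the median gene of the table at 177 as a dashed line. *Lpl* and *Cd36* lie far to the right, and *Angptl4* alone lies below the line in all 6 libraries.

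*Lpl* (chr8:68880491-68907448, plus strand) had, in replicate order, normalized counts of 132657, 130920 and 155956 under ND. Under HFD they were 140500, 164578 and 172871. The diets overlapped, since ND replicate 3 lay above HFD replicate 1. Means were 139844 ± 13980 and 159316 ± 16815 (SD, n = 3 libraries each), a log2 difference of 0.19 (SE 0.12) that became 0.27 without ND replicate 3. It was 0.12 after quantile normalization and 0.13 without HFD replicate 3. Some *Lpl* transcripts share runs of at least 75 bases, a read's length, with transcripts of 30 other genes, 11 of which are listed, the longest run being 105 bases. No such run was found for the other 9 genes among the transcripts of GENCODE M21.

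*Angptl4* (chr17:33773750-33781830, minus strand), whose secreted product inactivates lipoprotein lipase, was at 89.8, 129 and 131 in ND and at 208, 244 and 171 in HFD. Every HFD library lay above every ND library, the lowest of them 1.30 times the highest ND value. Means were 117 ± 23.3 and 207 ± 36.7 (SD, n = 3 libraries each), and the log2 difference was 0.83 (SE 0.18), or 0.92 without ND replicate 3. It was 0.65 without ND replicate 1, the lowest library. At 90.0 to 253 estimated reads, counting error alone reached 10.5% of the value, the most among the 10 genes.

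*Cd36* (chr5:17781690-17888801, minus strand), the scavenger receptor and fatty acid translocase, was at 39821, 49720 and 64195 in ND and at 71933, 89071 and 92527 in HFD. The diets did not overlap, although ND replicate 3 came within 1.12-fold of HFD replicate 1. Mean counts were 51245 ± 12259 and 84510 ± 11029 (SD, n = 3 libraries each), a log2 difference of 0.74 (SE 0.17) that became 0.92 without ND replicate 3. It fell to 0.57 when ND replicate 1 was left out. Of 13232 genes, 176 (1.33%) differed by as much or more in either direction.

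Platelets, endothelium and dendritic cells can also carry *Cd36*. For megakaryocytes and platelets 4 of 10 markers were listed (*Itgb3*, *Gp1ba*, *Pf4*, *Treml1*), 2 higher and 2 lower in HFD, with a sum of 1245 to 1944 under ND against 1982 to 2482. *Pf4* was at 566 to 1886 over the 6 libraries and 0.83 higher in HFD on the log2 scale, *Itgb3* was at 468 to 598 and lower in HFD, and *Gp1ba* and *Treml1* did not exceed 66.6. For endothelium 4 of 10 were listed (*Pecam1*, *Kdr*, *Vwf*, *Eng*), 2 higher and 2 lower in HFD, with sums of 3549 to 4664 in ND and 3307 to 3469 in HFD. The largest share of that sum was *Vwf*, at 2148 to 3607 over the 6 libraries and lower in HFD by a log2 difference of -0.37, while *Pecam1* did not exceed 85.2. Of dendritic cell markers only *Itgax* and *H2-Aa*, which macrophages also express, were listed (2 of 10), at 4272 to 5998 in ND and 7043 to 9130 in HFD. For stroma 4 of 10 were listed, all lower in HFD (201 to 636 against 61.7 to 417), and for neutrophils 6 of 10, all higher (1712 to 2455 against 2109 to 3430). *Cd4*, the only T cell marker listed of 6, was at 202 to 356 in ND and 98.1 to 230 in HFD. The part of these cells in the differences of *Cd36* and the other genes was not tested. In these bulk libraries, fewer cells of a type and less RNA per cell cannot be told apart.

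*Fabp4* (chr3:10204088-10208576, minus strand), the adipocyte and macrophage carrier, was at 862, 988 and 862 in ND and at 772, 815 and 894 in HFD. The values of the diets overlapped. The log2 difference was -0.13 (SE 0.084), -0.16 without ND replicate 3, and nearest 0 (-0.062) without ND replicate 2. *Fabp5* (chr3:10012548-10016607, plus strand), the carrier first known from skin, was at 8157, 8785 and 7161 in ND and at 7523, 7980 and 7150 in HFD. It overlapped as well, with a log2 difference of -0.086 (SE 0.083), -0.17 without ND replicate 3, and nearest 0 (-0.019) without ND replicate 2. The table lists a RefSeq pseudogene named for it, *Fabp5l2*, on a row of its own. It is not among the GENCODE transcripts searched, so whether reads are shared between them was not tested. In ND replicate 1, where *Cd36* was lowest, *Fabp5* stood at its ND median. *Fabp4* was there level with ND replicate 3, its lowest ND library (both 862).

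**Figure D2:**
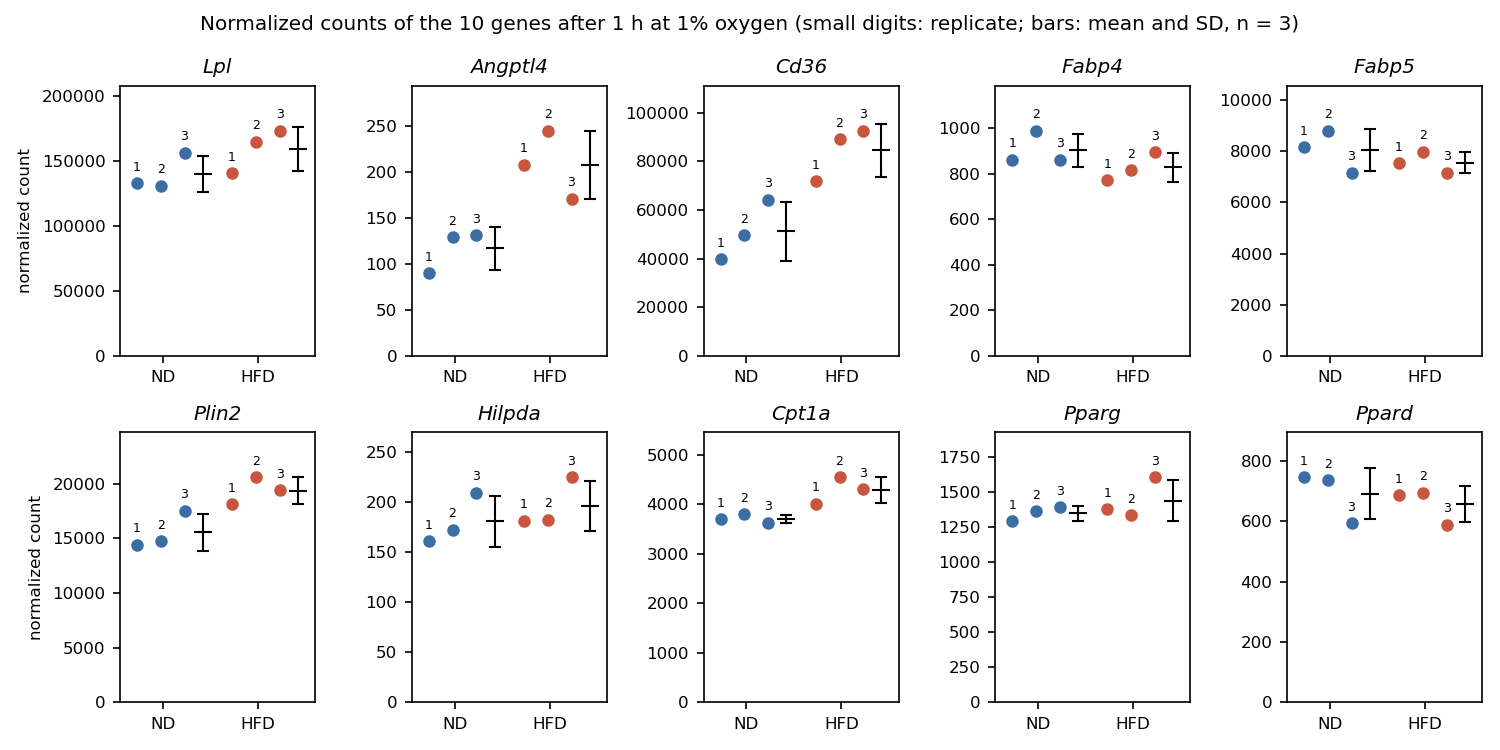
Normalized count of each of the 10 genes in each library (points, with the replicate number above), with the mean and SD of 3 libraries per diet beside them, on axes that start at 0. All HFD points lie above all ND points for *Angptl4*, *Cd36*, *Plin2* and *Cpt1a*, and the diets overlap for the other 6 genes.

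*Plin2* (chr4:86648386-86670060, minus strand) was at 14408, 14734 and 17518 in ND and at 18127, 20556 and 19374 in HFD. The diets did not overlap, with ND replicate 3 the nearest to HFD. Means were 15553 ± 1709 and 19352 ± 1215 (SD, n = 3 libraries each), and the log2 difference of 0.32 (SE 0.089) was 0.41 without ND replicate 3. *Hilpda* (chr6:29272488-29275446, plus strand) encodes a small droplet protein that inhibits the lipase ATGL. It was at 161, 172 and 209 in ND and at 181, 182 and 224 in HFD. Replicate 3 was the highest library within each diet, and the diets overlapped. Its log2 difference of 0.12 (SE 0.14) was 0.23 without ND replicate 3 and 0.018 without HFD replicate 3.

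*Cpt1a* (chr19:3322334-3385733, plus strand) was at 3692, 3795 and 3621 in ND and at 4007, 4538 and 4302 in HFD. The diets did not overlap, and here ND replicate 3 was the lowest of the 6 libraries. Means were 3702 ± 87.6 and 4282 ± 266 (SD, n = 3 libraries each), a log2 difference of 0.21 (SE 0.064), or 0.19 without ND replicate 3. It was also the steadiest of the 10 genes: its SD within a diet was 0.068 on the log2 scale, with 17.1% of genes steadier. *Angptl4* (0.28, 88.9%) and *Cd36* (0.28, 88.7%) were the most variable, beside 0.12 for the median gene.

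*Pparg* (chr6:115360951-115490399, plus strand), the receptor induced in lipid-laden macrophages, was at 1292, 1363 and 1393 in ND and at 1378, 1335 and 1605 in HFD. Only HFD replicate 3 lay above the ND range. The log2 difference was 0.089 (SE 0.080), 0.11 without ND replicate 3 and 0.0079 without HFD replicate 3. It was 0.14 at most, without HFD replicate 2. *Ppard* (chr17:28232700-28301474, plus strand), the more widely expressed receptor, was at 744, 735 and 593 in ND and at 685, 694 and 588 in HFD. Replicate 3 was the lowest library in both diets. Its log2 difference was -0.072 (SE 0.11), -0.18 without ND replicate 3 and 0.0049 without HFD replicate 3, a change of sign.

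Of the 10 genes, 7 were higher and 3 lower in HFD, with a median log2 difference of 0.15, beside -0.0034 for all 13232 genes. The diets did not overlap for 4, all higher in HFD, where 7.44% of all genes were so placed (7.07% were lower without overlap, 14.5% in all). No gene of the table passed an adjusted p of 0.05 in limma (0%), while 1401 (10.6%) had an unadjusted p under 0.05. With limma array weights, which give less weight to libraries that deviate, 1133 genes (8.56%) passed. As the 10 genes were chosen on this contrast, nothing is read from their count.

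**Figure D3:**
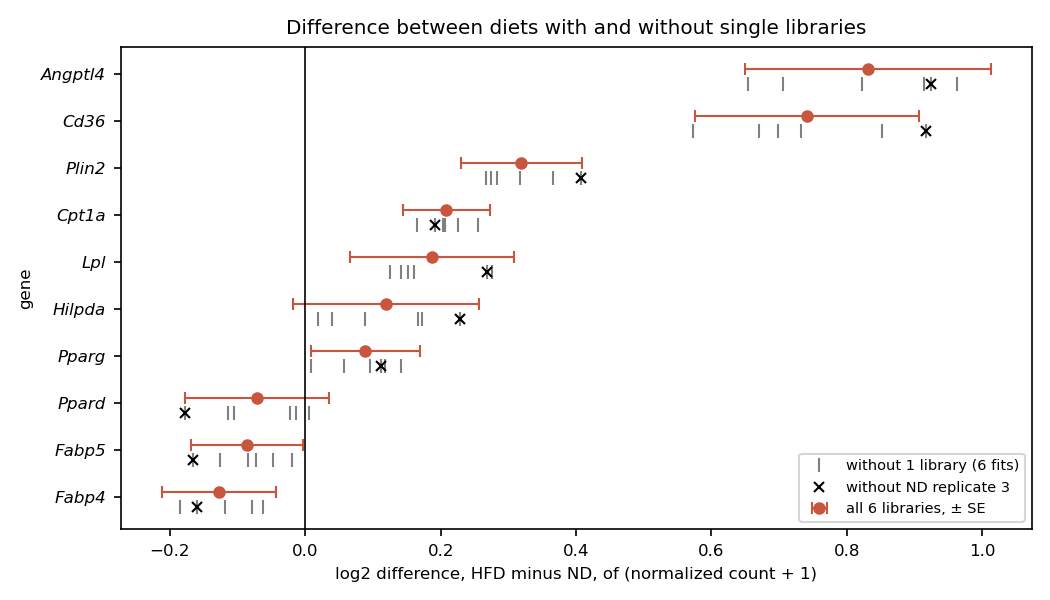
Log2 difference between diets (HFD minus ND) of each gene from all 6 libraries (red, with the SE), from the 6 fits that leave out 1 library (grey ticks) and without ND replicate 3 (cross). *Angptl4* (0.83) and *Cd36* (0.74), for whose difference the group was assembled, stand apart from the others. The ticks of *Ppard* lie on both sides of 0.

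No library was the highest or the lowest of its diet for all 10 genes. ND replicate 3 was the highest ND library for 6 genes and the lowest for 4, and HFD replicate 1 was the lowest HFD library for 6 and the highest for 0. *Cd36*, *Lpl*, *Plin2*, *Hilpda* and *Pparg* were highest among ND libraries in replicate 3, as was *Angptl4* by a narrow margin.

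The genes most like *Cd36* over the 6 libraries were found by the root mean square difference of log2 levels, each centred on its own mean. *Folr2*, a folate receptor of macrophages, was nearest at 0.040, from 895, 1155 and 1569 in ND to 1674, 2007 and 2119 in HFD. Next came *Gm21399* (0.042), a RefSeq pseudogene, for which sharing of reads with other genes was not tested, and *Klhl3* (0.053), an adaptor of a ubiquitin ligase. *Angptl4* ranked 188 by likeness to *Cd36* and *Plin2* 257, at 0.23 and 0.25. Nearest to *Angptl4* were the pseudogene *Gm7820* (0.095), *Pla2g7* (0.12), which encodes platelet-activating factor acetylhydrolase, and *Slc22a4* (0.13), a carrier of ergothioneine. *Pla2g7* was at 1513, 2111 and 2459 in ND and at 3512, 4610 and 3550 in HFD. *Angptl4* and *Pla2g7* were both highest in HFD replicate 2, while *Cd36* and *Folr2* were both highest in HFD replicate 3. As *Pla2g7* and *Folr2* were picked for likeness over these same libraries, a shared highest library is partly built in. That likeness also includes the difference between the diets.

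**Figure D4:**
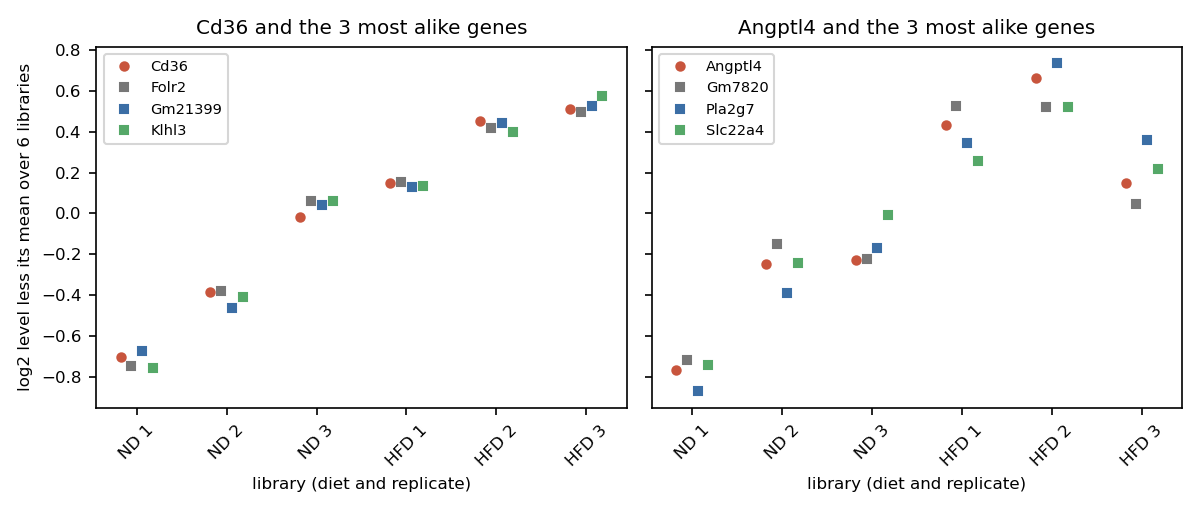
Log2 level, less its mean over 6 libraries, of *Cd36* (left) and *Angptl4* (right) with the 3 genes of the table most like each, by library. The points of *Folr2*, *Gm21399* and *Klhl3* nearly cover those of *Cd36*, within a root mean square difference of 0.053.

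Other genes of the pathway were described from 6 lists, with the 10 genes left out. None of their genes passed an adjusted p of 0.05 in limma, so counts at an unadjusted p under 0.05 are given, beside 10.6% of all genes (5.4% higher and 5.18% lower in HFD). Of 15 listed genes for fatty acid uptake and activation, 4 were higher and 2 lower at that level, with a median log2 difference of 0.037. *Msr1*, a scavenger receptor for modified lipoproteins, had 4489 ± 571 normalized counts under ND and 5904 ± 585 under HFD (SD over 3 libraries), a log2 difference of 0.40 (limma adjusted p 0.270). *Lipa*, the lysosomal acid lipase, was at 42381 ± 1428 and 50539 ± 5493 (0.25, limma adjusted p 0.396), and its difference was 0.11 after quantile normalization (limma adjusted p 0.735). Libraries of the diets were fully separate for both genes in the deposited values.

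Of 18 listed genes for droplet storage and lipolysis, 2 were higher and 0 lower at an unadjusted p under 0.05, with a median of 0.063. *Agpat3*, an acyltransferase of glycerolipid synthesis, was at 1702 ± 170 in ND and 2101 ± 66.6 in HFD, a log2 difference of 0.31 (limma adjusted p 0.270). *Plin3*, a second droplet coat protein, was at 1803 ± 194 and 2076 ± 138 (0.21, limma adjusted p 0.437), and its values overlapped. With array weights its difference was 0.33 (limma adjusted p 0.0223, within a range of 0.0223 to 0.956 over all alternatives). *Pnpla2*, which encodes the lipase ATGL, was at 1527 ± 85.3 and 1674 ± 56.6 (0.13, limma adjusted p 0.534), without overlap.

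Of 28 listed genes for fatty acid oxidation, 0 were higher and 1 was lower at an unadjusted p under 0.05, with a median of 0.010 and a range from -0.25 to 0.11. The median was -0.010 without ND replicate 3, -0.014 without ND replicate 2, -0.013 without HFD replicate 2 and -0.0021 with scaling to the column total. The lower one was *Acadsb*, a dehydrogenase of branched short-chain acyl groups, at 1377 to 1610 in ND and 1303 to 1328 in HFD (log2 difference -0.20, limma adjusted p 0.384). *Acad10* (-0.25, limma adjusted p 0.544) and *Hadhb* (0.11, limma adjusted p 0.663) followed, the latter at 0.038 with array weights. *Cpt2*, the partner of *Cpt1a* on the inner membrane, differed by 0.044. *Slc25a20*, the carnitine carrier between them, differed by 0.025.

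Among 17 listed receptors and coregulators of the PPAR and RXR family, 0 were higher and 1 was lower, with a median of -0.030. The lower one was *Ncoa3*, a coactivator, at 6238 ± 661 in ND and 5234 ± 55.1 in HFD (log2 difference -0.25, limma adjusted p 0.319, no overlap). *Tbl1xr1* (-0.088, limma adjusted p 0.695) and *Ncoa1* (-0.12, limma adjusted p 0.706) overlapped. Leaving out ND replicate 1 brought them to -0.028 and -0.062, and *Ncoa1* was at -0.054 without ND replicate 2 and -0.20 with array weights. *Rxra*, the dimer partner of both PPARs, was at 2095 in ND and 2243 in HFD on average (0.094).

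Of 15 listed genes known as PPAR targets elsewhere, 4 were higher and 0 lower, with a median of 0.14. *Nr1h3*, the lipid-sensing receptor LXRα, was at 286 ± 34.7 in ND and 390 ± 18.0 in HFD (log2 difference 0.45, limma adjusted p 0.239). *Abcg1*, a cholesterol exporter, was at 11770 ± 856 and 14158 ± 425 (0.27, limma adjusted p 0.278). *Cat*, the peroxisomal catalase, was at 14073 ± 1584 and 17362 ± 1272 (0.31, limma adjusted p 0.318). Each was higher in all 3 HFD libraries than in any ND library. *Mgll* and *Etfdh* stand on a further list too.

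Of 24 listed hypoxia-inducible genes, 7 were higher and 1 was lower, with a median of 0.15. These 8 genes became 2 without ND replicate 1 and 4 without ND replicate 2, but 12 without ND replicate 3 and 15 with array weights. *Eno1*, a glycolytic enolase, was at 3283 ± 552 in ND and 4179 ± 95.5 in HFD (log2 difference 0.36, limma adjusted p 0.286). The collagen prolyl hydroxylase genes *P4ha2* (0.56, limma adjusted p 0.318) and *P4ha1* (0.26, limma adjusted p 0.321) came next, and all 3 genes were separate between the diets. Hypoxia-inducible *Hilpda*, at 0.12, was near this median, and *Angptl4*, at 0.83, lay beyond the list's highest value of 0.56. The group was assembled for the difference of *Angptl4* between the diets, so nothing is read from its place here.

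Without ND replicate 3, 233 of all 13232 genes passed, and 4 of the 18 genes taken from the lists did: *Msr1* (0.50, limma adjusted p 0.0254), *Agpat3* (0.39, 0.0206), *Abcg1* (0.32, 0.0475) and *Eno1* (0.49, 0.0118). These 18 had been taken for the smallest unadjusted p of their lists in the same contrast, so nothing is read from their count. In the same fit the log2 difference of *Ncoa1* went from -0.12 to -0.23 and that of *Pnpla2* from 0.13 to 0.086, and neither passed. Over all alternatives tried, *Msr1* had limma adjusted p-values of 0.00821 to 0.879 and *Agpat3* of 0.00848 to 0.879. Those of *Abcg1* were 0.00995 to 0.882, and those of *Eno1* 0.00854 to 0.882.

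**Figure D5:**
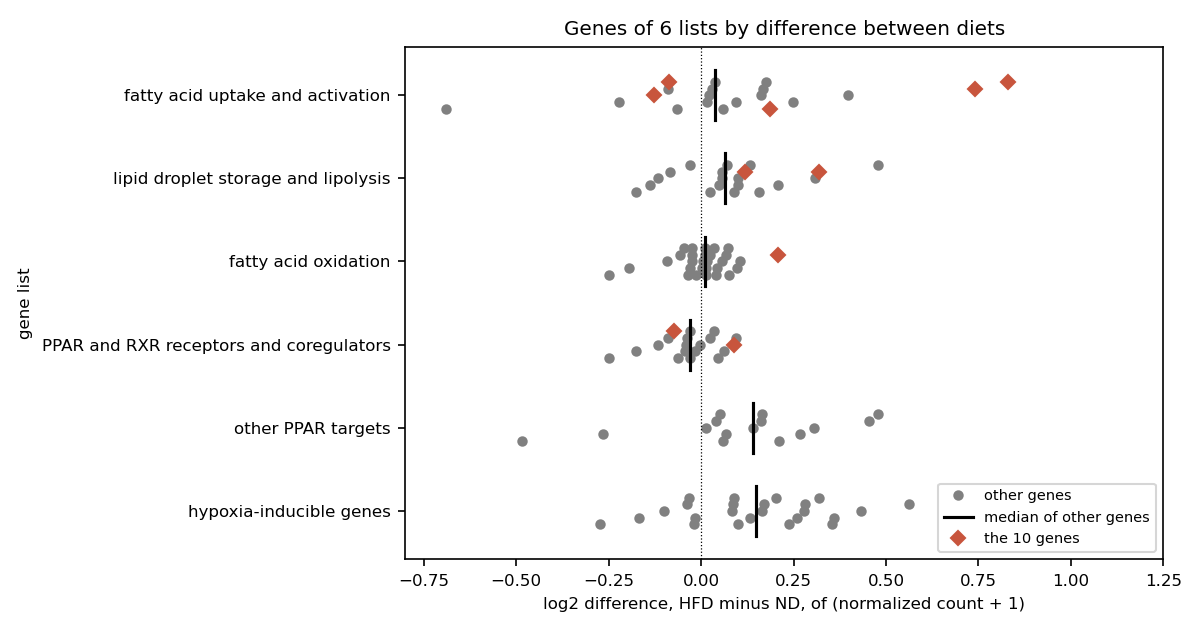
Log2 difference between diets (HFD minus ND) of the listed genes of 6 lists (grey points), with the 10 genes as red diamonds and the median of the others as a black bar. The bars run from -0.030 (receptors and coregulators) to 0.15 (hypoxia-inducible genes). *Angptl4* and *Cd36*, for whose difference the group was assembled, lie to the right of every other gene.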

How the data were processed

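RNA from 6 libraries, 3 per diet, was taken from a deposited table of 13232 genes. Its values are a signal: by their pattern, the authors' deposited gene counts were estimated and divided by a size factor per library, since 57.0% to 58.4% of values between 5 and 1000 were whole multiples (within 0.02) of 1 step per library. The rest were fractions, so whole reads were not recovered and no count test was run. Depth is the column sum over that step, and covers counting error only. Partek and STAR and the build mm10 are listed, per the submitters' processing notes, without versions or roles; quantifier, annotation and strand setting are not given in the sources used here. NC in a column name was read as the normal diet, since the labels name no further diet, and its number as the replicate.

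log2(value + 1) was fitted over all genes with limma 3.58.1 in R 4.3.3 (mean-variance trend, two-sided, Benjamini-Hochberg, threshold 0.05, no filter). SE is limma's moderated standard error, and fold changes understate those of low genes. The fit was also run on simulated data with planted changes and the same variance in every library. These libraries had array weights of 0.441 (ND replicate 3) to 3.09 (HFD replicate 2), so its power on them was not tested. Gene positions and transcript lengths are from GENCODE M21 (12964 symbols matched, 98.0%) and promoters from RefSeq on GRCm38.p6. The 10 genes and the lists were chosen with earlier results of these data known. From each list the 3 genes of smallest unadjusted p were taken, 1 of which is not reported here, and for *Cd36* and *Angptl4* the 3 genes most alike. Other genes named were chosen after their values were seen. Alternatives were another pseudocount (0.1), a minimum of 10 in every library, quantile and column-total scaling, no trend, array weights, a replicate term and leaving out each library. Length over all exons was added after seeing the data.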

Additional observations from a re-analysis of the deposited data

How the results depend on the processing

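The number of genes past the threshold was 0 under column-total or quantile scaling, with a pseudocount of 0.1, with at least 10 required per library, and in limma without the trend. This number was 1133 with array weights, and from 0 to 233 when a library was left out: ND replicate 3 gave 233 when dropped, HFD replicate 1 gave 2, ND replicate 2 gave 1, and the other 3 fits gave 0. The cause was not tested. Genes at an unadjusted p under 0.05 numbered 1401 with all libraries, 3646 with array weights and 2309 without ND replicate 3. Dropping ND replicate 1 gave 700, and dropping HFD replicate 2 gave 726. List counts at that level moved too: 6 uptake genes became 2 (without HFD replicate 2) to 8 (array weights), 2 droplet genes 1 to 6, 1 oxidation gene 0 to 2, 1 receptor or coregulator gene 1 to 3, and 4 other PPAR targets 3 to 9. A replicate block gave 31 genes past the adjusted threshold. Deviations of libraries with a shared number had correlations of 0.0891, -0.112 and 0.0273. Such correlations over many genes cannot exclude a pairing that affects some of them, so whether shared numbers mark pairs was not settled. Differences of the 10 genes kept their sign in 129 of 130 values, the exception being *Ppard* without HFD replicate 3 (0.0049), and each moved by less than its SD within a diet. Of 234 values for the 18 genes taken from lists, 16 came to pass the threshold (12 with array weights, 4 without ND replicate 3) and none changed sign. As these genes were taken for their smallest p, that number is a description only. Over all alternatives, list medians ran from 0.0087 (without ND replicate 2) to 0.065 for uptake, 0.048 to 0.10 for droplets, -0.014 to 0.019 for oxidation, -0.073 to -0.0040 for receptors, 0.093 to 0.17 for other PPAR targets and 0.12 to 0.18 for hypoxia-inducible genes. Only the oxidation median changed sign. Depth limits mainly *Angptl4* and *Hilpda*, where counting error alone reached 10.5% and 7.88% of a value.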

Other observations

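Ratios per kb of transcript were taken between pairs of the 10 genes, and of *Plin2* and *Cpt1a* to *Plin3* and *Cpt2* outside them. They gave a view of the balance within a library that scaling between libraries does not touch. They rest on the contrast that chose the genes and are a description, with no test. *Cd36* per *Lpl*, a receptor beside the enzyme that supplies it, was, in replicate order, 0.363, 0.460 and 0.498 under ND. Under HFD it was 0.620, 0.655 and 0.648. *Plin2* per *Plin3*, the main and the second droplet coat, was 17.0, 16.2 and 16.8 in ND and 17.7, 17.8 and 18.6 in HFD. Both ratios were higher in every HFD library, although *Plin3* alone overlapped between the diets. *Fabp5* per *Fabp4* was 8.59, 8.08 and 7.54 in ND and 8.84, 8.88 and 7.26 in HFD, and *Pparg* per *Ppard* was 2.68, 2.86 and 3.62 in ND and 3.10, 2.97 and 4.21 in HFD. For the last, replicate 3 was the highest library in both diets. Among ratios not printed in full, *Cpt1a* per *Cpt2* (5.95 in ND replicate 3, 5.92 in HFD replicate 3) and *Plin2* per *Hilpda* overlapped between the diets. *Cd36* per *Plin2* did not, nor, by a narrow margin, did *Angptl4* per *Lpl*.

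*Angptl4* per *Hilpda*, a pair that low oxygen induces, was 0.166, 0.223 and 0.186 in ND and 0.340, 0.397 and 0.226 in HFD. HFD replicate 3 lay close to the highest ND library here. The 6 libraries at normal oxygen, which would show each gene's own response to hypoxia, were not analysed here.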
